A study of Macaca fascicularis with 12 samples.

Results

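The Wnt ligands, their Frizzled receptors and the secreted antagonists of the DKK and SFRP families were followed in iliac arteries of monkeys that carried small, medium or large atherosclerotic plaques. Members were all array probes annotated with a single gene symbol that begins with WNT, FZD, SFRP or DKK followed by a digit. This rule gave 43 of 54359 probes in the table, for 38 symbols. Of these, 41 probes measured 36 coding genes, with 20 probes for 18 Wnt ligands, 12 probes for 10 Frizzled receptors and 9 probes for 8 antagonists. The other 2 probes measured the non-coding neighbours FZD4-DT and FZD10-AS1. All 43 probes had enough values to be tested, and all 36 coding symbols were found in the gene list of the macaque reference.

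Each of 12 female cynomolgus monkeys (Macaca fascicularis), over 20 years old per the labels, gave 1 left iliac artery biopsy and 1 array, so that replicates were separate animals. All animals had eaten a high fat diet for 8 years and had been without ovaries for 4 years, and the labels name no other treatment. Plaque areas were 0, 0, 0.041 and 0.113 mm2 in the small group (n = 4), 0.3 to 0.542 mm2 in the medium group (n = 5) and 0.61 to 1.003 mm2 in the large group (n = 3). No animal on a normal diet or with its ovaries intact was in the comparison, and the small group, of which 2 arteries had no plaque, was the baseline. RNA came from the minced artery and was hybridised to CodeLink arrays made for human genes, so a probe may bind monkey RNA less well where the sequences differ, and levels were compared only within a probe.

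Wnt proteins are lipid-modified signals that bind Frizzled receptors on nearby cells. In the canonical branch, a Wnt bridges a Frizzled to the co-receptors LRP5 or LRP6, which spares beta-catenin from degradation and lets it act with TCF and LEF factors on target genes. Other branches act through calcium or through planar cell polarity. DKK proteins bind the LRP co-receptors and SFRP proteins bind the Wnts themselves, and in the artery wall these signals are known for effects on smooth muscle growth, endothelial cells and calcification.

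Intensities had been scaled by the authors so that the median probe of an array was near 1, and they are given here as log2, on which 0 is the level of that median probe. Values under 0.111, the 5th percentile of all positive intensities, were set to it before the log, which put the floor at -3.17. A probe was near the floor when its mean over the 12 arrays lay within 1 log2 unit of it. This held for 3 of the 41 coding probes, those of WNT8A, FZD10 and the dimmer of 2 probes for FZD3, against 20.3% of all probes tested. The members just inside that limit lay 0.93 (WNT8A) and 0.98 (FZD10) above the floor on average, and those just outside it 1.04 (FZD9) and 1.14 (the dimmer probe of DKK3). The other 38 coding probes, for 34 genes, are the ones described below unless stated.

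The array medians were alike, between 1.004 and 1.009 on the linear scale, and 3.93% to 6.51% of the values of an array were at the floor. Small replicate 4 and medium replicate 5 carry animal numbers apart from those of the other 10 animals. The labelled tissue was borne out by contractile smooth muscle markers such as MYH11 and ACTA2, of which 10 of 12 were measured and none was near the floor. Their summed linear intensity ran from 2089 to 2963 in small, from 864 to 1738 in medium and from 1106 to 1945 in large plaque arteries. The sum of 10 macrophage markers moved the other way, from 69.0 to 125 in small, from 276 to 587 in medium and from 302 to 455 in large. Endothelial markers summed to between 163 and 230 in small, 74.2 and 122 in medium and 93.4 and 127 in large, with KDR and EGFL7 near the floor. Adventitial fibroblast markers summed to between 524 and 710 in small, 165 and 553 in medium and 288 and 608 in large. The sums of smooth muscle, macrophage and endothelial markers therefore did not overlap between small and the larger plaque groups. That of 5 B and plasma cell markers did not either, at 9.52 to 12.8 in small, 13.4 to 31.8 in medium and 17.0 to 68.9 in large. The sum of 9 T cell markers overlapped, at 13.0 to 32.9 in small, 28.6 to 49.7 in medium and 24.1 to 37.6 in large. The part of these cells in each result below was not tested. Sums follow their brightest markers. Per endothelial marker, the median log2 difference from small was -0.25 in large and -0.20 in medium, against -0.10 and -0.09 over all probes. It was -0.85 and -1.15 for smooth muscle markers and 3.13 and 2.91 for macrophage markers. In whole tissue, fewer cells of a type and less RNA per cell cannot be told apart.

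No Wnt ligand, receptor or antagonist above the floor passed the test in any comparison. A probe passed when its adjusted p was under 0.05 in limma, fitted over all 12 arrays with Benjamini-Hochberg adjustment over the 53877 probes tested. Between large and small plaque arteries 1 member passed, the near-floor probe of WNT8A, against 1.15% of all probes. Between medium and small 0 members passed, against 3.14% of all probes, and between large and medium 0 passed, against 0% of all probes. The slope on plaque area was passed by 0 members, against 0.583% of all probes, and the test for any difference among the 3 groups by 0 members, against 1.97%. At an unadjusted p under 0.05, the large against small comparison held 2 of the 38 members (WNT10B and FZD7), which is 5.26%, against 17.9% of the probes that were not near the floor. For medium against small it held 4 members (WNT3, FZD1, FZD4 and FZD7), 10.5% against 20.1%, and for large against medium none, against 4.54%. The slope held 2 members (FZD4 and FZD7), 5.26% against 17.9%, and the test over the 3 groups held WNT3 and FZD7, against 17.6% of probes.

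The differences were mostly small and leaned downwards. In large minus small, 29 of the 38 members had a negative difference (76.3%, against 59.7% of all probes not near the floor), with a median of -0.24 against -0.09. In medium minus small, 28 members were negative (73.7% against 55.9%), with a median of -0.10 against -0.05. In large minus medium, 25 were negative (65.8% against 56%), with a median of -0.09 against -0.04. Small replicate 3 was the highest of the 12 arrays for 12 of the 38 members (31.6%), among them WNT5A, WNT6, WNT7B and SFRP5. The matching share over all probes is not given here. How far the lean in the comparisons with small rests on this artery was not tested for the members as a set. The 95% interval of the difference lay within 1 log2 unit of 0 for 29 of 38 members in large minus small, for 25 in medium minus small and for 28 in large minus medium. Wider intervals in all 3 comparisons belonged to WNT2B, WNT9B, WNT11, DKK2, SFRP2, the dimmer probe of WNT3 and the dimmer probe of DKK3.

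**Figure D1:**
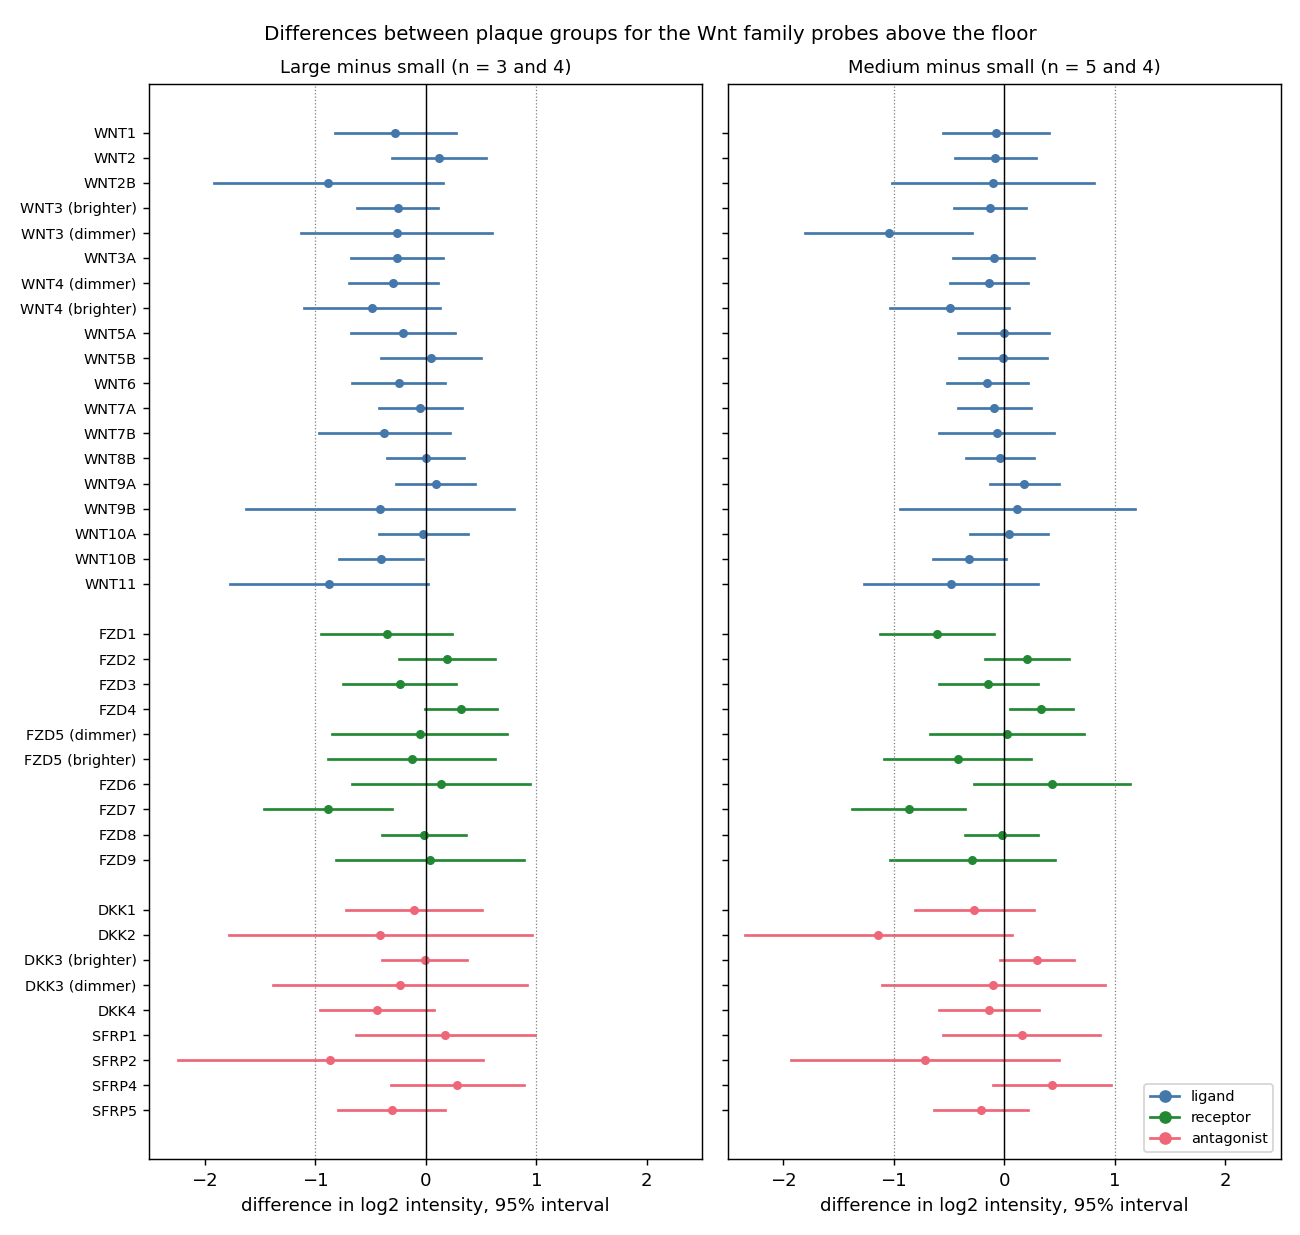
Differences in log2 intensity (horizontal axis, with 95% intervals from limma) for the 38 coding probes above the floor, large minus small on the left and medium minus small on the right. Ligands are at the top, receptors in the middle and antagonists at the bottom. Most points lie between -0.5 and 0.5, and FZD7 has an interval below 0 in both panels, at -0.88 and -0.87.

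Among the 17 ligands above the floor (19 probes), the median difference was -0.26 in large minus small and -0.09 in medium minus small. WNT10B, which signals through beta-catenin and is known for holding back fat cell formation, had 0.28, 0.62, 0.79 and 0.35 in small, -0.01, 0.13, 0.27, 0.22 and 0.35 in medium and 0.18, 0.02 and 0.11 in large plaque arteries. Every large plaque artery was below every small one, while medium and small overlapped. Its large minus small difference was -0.40 ± 0.17 (SE, n = 3 and 4, limma adjusted p = 0.277), and its medium minus small difference was -0.32 ± 0.15 (n = 5 and 4, adjusted p = 0.297).

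WNT3, a canonical Wnt needed for the body axis of the embryo in mice, had 2 probes that differed. The dimmer one had -0.18, -0.52, -0.27 and -0.69 in small, -0.74, -1.27, -1.21, -2.15 and -1.92 in medium and 0.29, -1.04 and -1.28 in large. All medium plaque arteries lay below all small ones, and the large group spanned both, with large replicate 1 the highest of all arrays. The medium minus small difference was -1.04 ± 0.35 (adjusted p = 0.133) and the large minus small difference -0.26 ± 0.40 (adjusted p = 0.791), which ran from -0.75 without large replicate 1 to 0.035 without large replicate 3. The brighter probe of the gene gave -0.13 ± 0.15 in medium minus small (adjusted p = 0.699), so the 2 probes did not show the same difference.

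WNT4, known for its part in kidney and female reproductive tract development, had a brighter probe at 0.52, 0.61, 1.75 and 0.63 in small, 0.16, 0.34, 0.79, 0.34 and 0.27 in medium and 0.55, 0.22 and 0.40 in large. The value of 1.75 in small replicate 3 stood far above the rest, and the groups overlapped. The differences from small were -0.48 ± 0.28 in large (adjusted p = 0.434) and -0.49 ± 0.25 in medium (adjusted p = 0.320), and without small replicate 3 they were -0.19 in large and -0.20 in medium. The dimmer probe gave -0.29 ± 0.18 and -0.14 ± 0.16.

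WNT11, which acts mainly through the polarity branch, had -0.82, -0.91, -1.06 and -1.08 in small, -0.89, -1.61, -1.49, -1.51 and -1.74 in medium and -1.32, -3.17 and -1.03 in large. The value of -3.17 in large replicate 2 is the floor, and without that artery the large minus medium difference, -0.40 ± 0.39 over all 12 arrays, turned positive at 0.27. Large minus small was -0.87 ± 0.41 (adjusted p = 0.325), and -0.21 without large replicate 2. WNT2B, a relative of WNT2 with a known role in limb outgrowth in the chick, had -1.34, -1.42, -1.20 and -2.05 in small, -1.76, -3.06, -1.03, -1.03 and -1.15 in medium and -3.17, -2.08 and -1.89 in large. Again 1 large plaque artery, replicate 1, was at the floor, and large and small overlapped. Large minus small was -0.88 ± 0.48 (adjusted p = 0.392), and -0.49 without that artery.

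**Figure D2:**
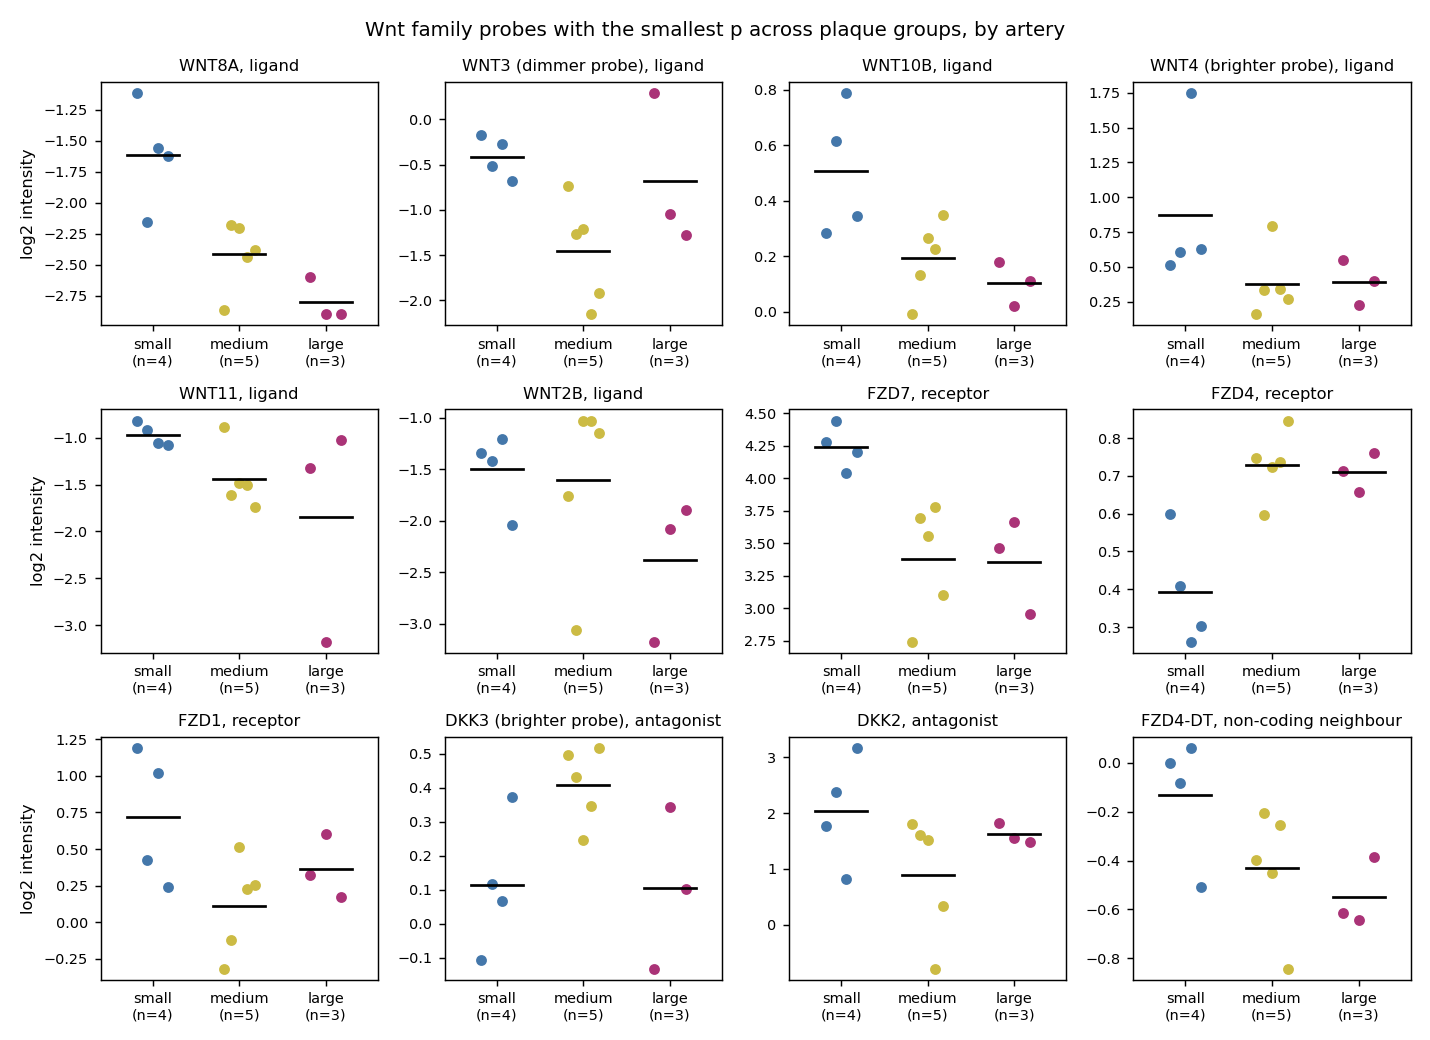
Log2 intensity (vertical axes, each with its own range) in each of the 12 arteries for the 12 member probes with the smallest p over the 3 groups, with small, medium and large plaque from left to right. Points are arteries and black lines are group means. FZD7 is the coding member above the floor in which all 8 medium and large arteries lie below all 4 small ones.

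The other ligands did not pass either. WNT5A and WNT5B, known in atherosclerosis research for their part in inflammation, differed from small by -0.21 ± 0.22 and 0.05 ± 0.21 in large and by -0.01 ± 0.19 and -0.01 ± 0.18 in medium. WNT2 gave 0.12 ± 0.19 and -0.08 ± 0.17, WNT7B -0.37 ± 0.27 and -0.07 ± 0.24, and WNT9A, a member used in joint formation, 0.09 ± 0.16 and 0.18 ± 0.14 in the same comparisons. The estimates of the other ligand probes not given above (WNT1, WNT3 brighter, WNT3A, WNT6, WNT7A, WNT8B, WNT9B and WNT10A) ran from -0.41 (WNT9B) to 0.00 (WNT8B) in large minus small and from -0.15 (WNT6) to 0.12 (WNT9B) in medium minus small. WNT9B carried the widest ligand spread, with a within-group SD of 0.83, at the 95.4th percentile of probes not near the floor.

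No Frizzled receptor passed, and FZD7 had the smallest unadjusted p over the 3 groups among them. FZD7, a receptor of canonical and other Wnt signals with a known role in muscle stem cells of mice, had 4.28, 4.44, 4.04 and 4.20 in small, 2.74, 3.69, 3.55, 3.78 and 3.10 in medium and 3.46, 3.66 and 2.95 in large plaque arteries. Every medium and large plaque artery was below every small one, while medium and large overlapped throughout. It was the only 1 of the 38 members with this pattern (2.63%), against 3.06% of all probes not near the floor, and 0 members had the opposite pattern, against 3.27%. These counts of groups that do not overlap were added after the values had been seen. The large minus small difference was -0.88 ± 0.27, a ratio of 0.542 on the linear scale (95% interval of the log2 difference -1.46 to -0.30, adjusted p = 0.132). Medium minus small was -0.87 ± 0.23, a ratio of 0.549 (interval -1.38 to -0.36, adjusted p = 0.0706). It missed the threshold in both comparisons, and passed in medium minus small only with a variance trend and robust moderation (adjusted p = 0.0474). On plaque area its slope was -1.15 ± 0.35 per mm2 (adjusted p = 0.131), and over the 8 medium and large arteries alone the slope was -0.29 ± 0.59. Large minus medium was -0.02 ± 0.26, and its sign turned when any 1 of large replicate 3 or medium replicates 2, 3 and 4 was left out, with values up to 0.18. Summed smooth muscle markers and summed endothelial markers were likewise lower in all 8 of these arteries than in the small group, and summed macrophage markers were higher. The part of any of these cells in the FZD7 values was not tested.

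FZD4, the receptor of Norrin in retinal vessel growth, ran the other way. It had 0.60, 0.41, 0.26 and 0.30 in small, 0.75, 0.60, 0.72, 0.74 and 0.85 in medium and 0.71, 0.66 and 0.76 in large. Large was above small in every artery, and medium replicate 2 met small replicate 1 at 0.60. The differences from small were 0.32 ± 0.15 in large (adjusted p = 0.328) and 0.34 ± 0.13 in medium (adjusted p = 0.201), with a slope of 0.44 ± 0.19 per mm2 (adjusted p = 0.271). Its within-group SD of 0.11 was among the lowest on the arrays, at the 1.04th percentile of probes not near the floor.

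FZD1, a close relative of FZD7 and FZD2, had 1.19, 0.43, 1.02 and 0.24 in small, -0.32, -0.12, 0.51, 0.23 and 0.26 in medium and 0.32, 0.60 and 0.17 in large. Its groups overlapped. Medium minus small was -0.61 ± 0.24 (adjusted p = 0.199) and large minus small -0.35 ± 0.27 (adjusted p = 0.563), the second being -0.20 without small replicate 1. FZD2 gave 0.19 ± 0.20 in large and 0.21 ± 0.18 in medium, so the 3 relatives did not share a direction in these estimates.

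The remaining receptor probes above the floor did not pass. FZD8, which binds Wnts through a well-studied extracellular domain, gave -0.01 ± 0.17 in large minus small and -0.02 ± 0.15 in medium minus small, and both 95% intervals lay within 0.5 log2 units of 0. FZD3, the polarity receptor of growing axons, gave -0.24 ± 0.24 and -0.14 ± 0.21 on its brighter probe, FZD6, known for hair orientation in mice, 0.14 ± 0.37 and 0.43 ± 0.32, and FZD9 0.04 ± 0.39 and -0.29 ± 0.34. The 2 probes of FZD5 gave -0.13 ± 0.35 and -0.06 ± 0.36 in large minus small, and -0.42 ± 0.31 and 0.02 ± 0.32 in medium minus small, for the brighter and the dimmer probe.

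**Figure D3:**
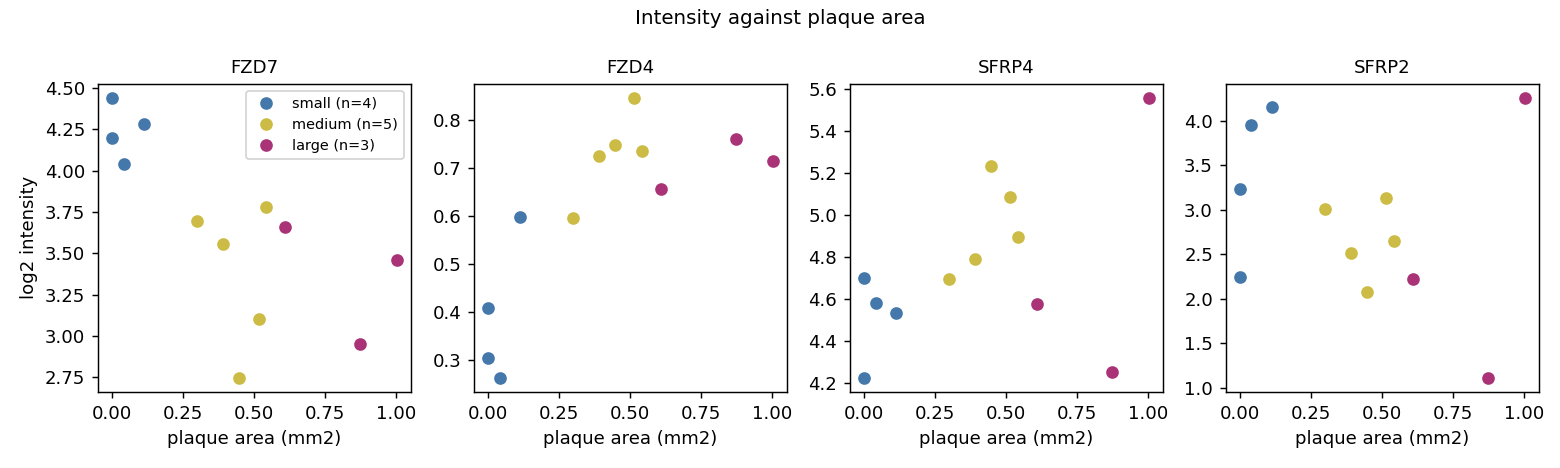
Log2 intensity (vertical axes) against plaque area in mm2 (horizontal axes) for FZD7, FZD4, SFRP4 and SFRP2, with 1 point per artery coloured by plaque group. FZD7 is highest in the 4 small plaque arteries, and the highest SFRP4 and SFRP2 values, 5.56 and 4.26, belong to the artery with the largest plaque, at 1.003 mm2.

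None of the 9 antagonist probes passed, and they held the most variable members. DKK2, which can inhibit or aid Wnt signals depending on its co-receptors, had 1.76, 2.37, 0.82 and 3.17 in small, 1.81, 1.61, 1.51, -0.79 and 0.34 in medium and 1.82, 1.55 and 1.49 in large. Medium replicates 4 and 5 were low and small replicate 4 was high, and the groups overlapped. Medium minus small was -1.14 ± 0.55 (adjusted p = 0.302) and large minus small -0.41 ± 0.63 (adjusted p = 0.794). Medium minus small was -0.72 without medium replicate 4 and -0.76 without small replicate 4, and large minus small ran from -0.82 without small replicate 3 to -0.033 without small replicate 4. Its within-group SD of 0.94 was at the 97.6th percentile of probes.

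SFRP2, a Wnt-binding protein made by fibroblast-like cells, spread as widely, with a within-group SD of 0.94 at the 97.7th percentile. It had 4.15, 3.23, 3.95 and 2.25 in small, 2.08, 3.01, 2.51, 2.65 and 3.14 in medium and 4.26, 2.22 and 1.11 in large. The large group alone held both the highest and the lowest artery of all 12. Differences from small were -0.86 ± 0.64 in large (adjusted p = 0.545) and -0.72 ± 0.56 in medium (adjusted p = 0.540). Within the large group the adventitial fibroblast sum had the same order as SFRP2 (608, 335 and 288 in replicates 1, 2 and 3), while within the medium group replicate 1 had the highest sum, 553, and the lowest SFRP2. The part of these cells in the SFRP2 values was not tested.

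SFRP4, a relative of SFRP1 with a known role in phosphate balance, had 4.53, 4.22, 4.58 and 4.70 in small, 5.23, 4.69, 4.79, 4.89 and 5.09 in medium and 5.56, 4.57 and 4.25 in large. Medium replicate 2 overlapped small replicate 4, and the large group spanned both. Differences from small were 0.29 ± 0.28 in large (adjusted p = 0.660) and 0.43 ± 0.24 in medium (adjusted p = 0.381). Its slope on plaque area was 0.54 ± 0.33 per mm2 (adjusted p = 0.444).

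DKK3, a divergent DKK that is secreted by artery wall cells, had on its brighter probe -0.11, 0.12, 0.07 and 0.37 in small, 0.50, 0.43, 0.25, 0.35 and 0.52 in medium and -0.13, 0.34 and 0.10 in large. The medium group was higher than most small arteries but overlapped small replicate 4. Medium minus small was 0.30 ± 0.16 (adjusted p = 0.342) and large minus small -0.01 ± 0.18, and the sign of that second value turned when large replicate 1 (0.11) or small replicate 4 (0.08) was left out. The dimmer probe gave -0.10 ± 0.46 and -0.24 ± 0.53 in the same comparisons.

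The other antagonists did not pass either. DKK1, the best studied inhibitor of LRP5 and LRP6, gave -0.11 ± 0.28 in large and -0.27 ± 0.25 in medium. SFRP1 gave 0.18 ± 0.37 and 0.16 ± 0.33, SFRP5 -0.31 ± 0.22 and -0.21 ± 0.20, and DKK4 -0.44 ± 0.24 and -0.14 ± 0.21 in these comparisons. For all 4 of these genes, both 95% intervals lay within 1 log2 unit of 0.

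The 2 non-coding neighbours did not pass. FZD4-DT, a transcript named for its place beside FZD4, had 0.00, -0.08, 0.06 and -0.51 in small, -0.40, -0.21, -0.45, -0.25 and -0.84 in medium and -0.62, -0.64 and -0.38 in large. Small replicate 4 lay among the medium and large arteries, and the other small ones lay above all of them. Its large minus small difference was -0.42 ± 0.20 (adjusted p = 0.344), of opposite sign to that of FZD4. FZD10-AS1 gave -0.15 ± 0.16 in large minus small and -0.15 ± 0.14 in medium minus small.

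The near-floor probes were set aside, and WNT8A, an early embryonic Wnt, was among them. It had -1.12, -2.15, -1.56 and -1.62 in small, -2.86, -2.17, -2.21, -2.43 and -2.38 in medium and -2.60, -2.90 and -2.90 in large, with no array at the floor itself. All medium and large plaque arteries were below all small ones, with medium replicate 2 at -2.17 next to small replicate 2 at -2.15. Large minus small was -1.18 ± 0.25 (adjusted p = 0.0437), and medium minus small was -0.80 ± 0.22 (adjusted p = 0.0714). The call in large minus small held under 7 of 22 alternatives, with adjusted p from 0.0315 to 0.166. It was lost without any 1 of large replicates 1, 2 and 3 (adjusted p = 0.128, 0.0980 and 0.166), medium replicates 2 to 5 (0.0551 to 0.0613) and small replicates 3 and 4 (0.0751 and 0.0731). At this brightness the log2 scale stretches small linear differences. FZD10 gave -0.46 ± 0.32 in large minus small, and the dimmer FZD3 probe was at the floor on all 3 large plaque arrays and on 3 of 5 medium ones.

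The other genes of the pathway were read from 8 lists, with a gene represented by its brightest probe, and 115 of the 127 listed genes were measured. Between medium and small plaque arteries 8 of the 115 passed, which is 6.96% against 3.14% of all probes, with 3 higher and 5 lower in medium and 1 in each of the 8 lists. Between large and small 1 passed (TMED2, 0.87% against 1.15%), and between large and medium and on the slope 0 passed. Over the 3 groups 5 passed (TMED2, RSPO3, APCDD1, TLE1 and NKD1), 4.35% against 1.97%. These shares are not of like sets. The listed genes were each read from their brightest probe, while all probes included 20.3% near the floor and 29710 of 53877 with no gene symbol. The part of brightness and annotation in the gap between the shares was not tested. The lists were chosen with earlier results of these arrays known.

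NKD1, a feedback inhibitor that binds Dishevelled and is induced by beta-catenin, gave the result that held most often. It averaged -0.07 ± 0.16 in medium and 0.97 ± 0.25 in small (SD, n = 5 and 4), a difference of -1.05 ± 0.16 (SE, adjusted p = 0.00577), and passed under all 23 alternatives. In large minus small it gave -0.48 ± 0.19 (adjusted p = 0.232). Its 2 dimmer probes gave -0.47 and -0.34 in medium minus small and did not pass. Most of the listed beta-catenin target genes had the opposite sign to NKD1. Of 17 listed, 14 were measured, without SP5, MYC and CCND1, and only NKD1 passed. In medium minus small 10 of the 14 measured were positive, with a median of 0.18 against -0.09 over all probes. In large minus small 9 of 14 were positive, with a median of 0.14 against -0.10. Of all probes not near the floor, 55.9% were negative in medium minus small and 59.7% in large minus small. The list was not tested as a set.

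Upstream of the receptors, RSPO3, an R-spondin that strengthens Wnt signals by protecting Frizzled from turnover, rose by 0.99 ± 0.22 in medium over small (adjusted p = 0.0328), and its large minus small difference was 1.11 ± 0.25 (adjusted p = 0.0580). APCDD1, a membrane antagonist of Wnts, rose by 2.02 ± 0.36 in medium (adjusted p = 0.0123), while its dimmer probe gave 0.30 (adjusted p = 0.683). In large minus small APCDD1 gave 1.22 ± 0.41 (adjusted p = 0.174), and without large replicate 2, which was as low as the small group, 1.85 (adjusted p = 0.0159). TMED2, a cargo carrier of the secretory path, rose by 2.68 ± 0.54 in medium (adjusted p = 0.0204) and by 2.84 ± 0.61 in large (adjusted p = 0.0480). LRP5, a co-receptor of canonical signals, fell by 1.39 in medium (SE 0.33, adjusted p = 0.0444) and gave -0.12 ± 0.38 in large minus small, where the sign turned without small replicate 1 (0.13) or 3 (0.04).

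Inside the cell, AMER1, a scaffold that aids beta-catenin breakdown, fell by 0.73 in medium (SE 0.17, adjusted p = 0.0367). TLE1, a corepressor of TCF factors, fell by 1.63 (SE 0.31, adjusted p = 0.0175), but its dimmer probe gave -0.04. DAAM2, a formin that binds Dishevelled, fell by 1.54 (SE 0.32, adjusted p = 0.0254), with -0.68 on its dimmer probe (adjusted p = 0.200). In large minus small these 3 gave -0.76 ± 0.19, -0.89 ± 0.36 and -1.27 ± 0.37, with adjusted p of 0.0764, 0.250 and 0.120. AXIN2, the most widely used readout of beta-catenin activity, gave 0.30 ± 0.16 in medium minus small (adjusted p = 0.355) and 0.11 ± 0.18 in large minus small (adjusted p = 0.819). The probe of beta-catenin itself, CTNNB1, was near the floor. Among the dimmer probes, which did not represent their genes in these counts, 1 for the target gene CD44 passed in medium minus small (0.87, adjusted p = 0.0184) and in large minus small (0.95, adjusted p = 0.0399), and 1 for the corepressor TLE4 in medium minus small (0.93, adjusted p = 0.0316), both named after their values had been seen. The brighter CD44 probe gave 0.27 (adjusted p = 0.538) and 0.16 (adjusted p = 0.790) in these comparisons. In medium minus small the brightest TLE4 probe gave 0.15 (adjusted p = 0.740) and another dimmer one 0.17 (adjusted p = 0.657). The share of dimmer probes that passed is not given here. Over all probes 3.14% passed in medium minus small and 1.15% in large minus small.

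**Figure D4:**
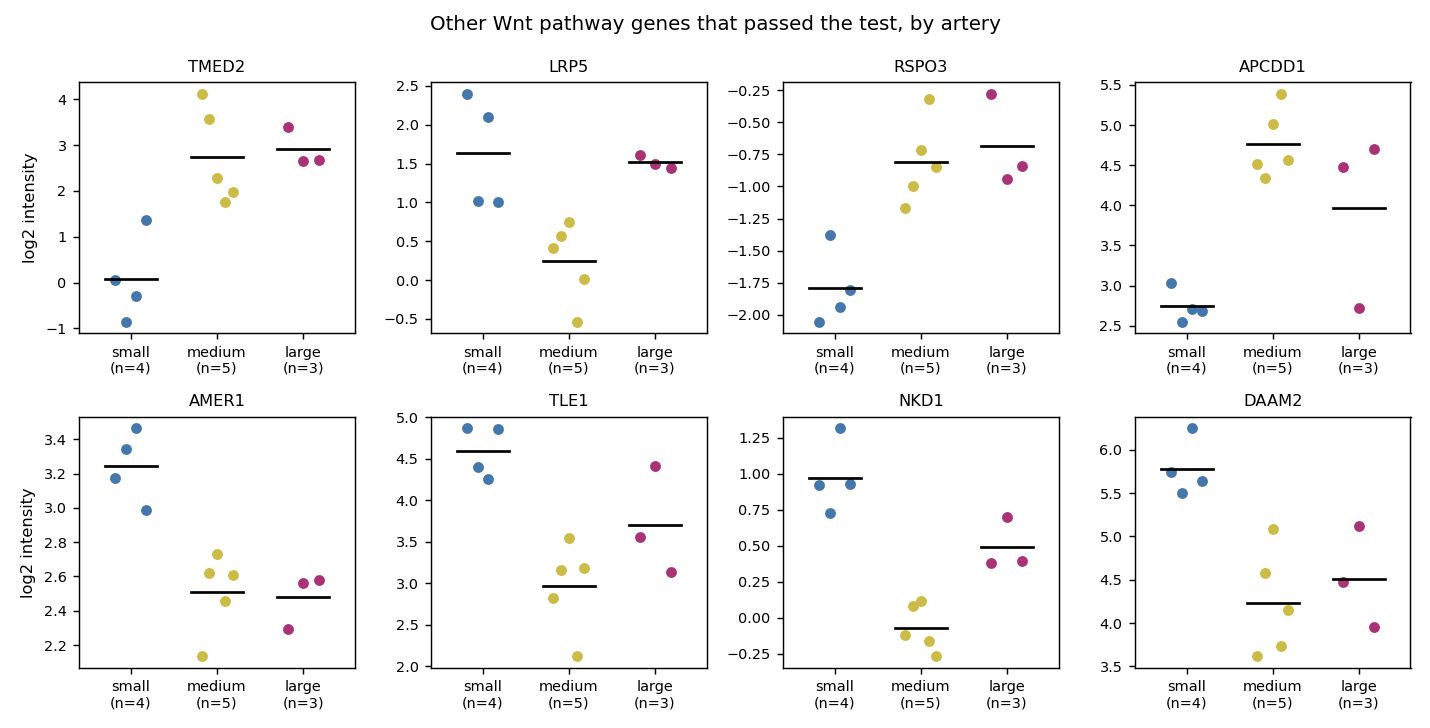
Log2 intensity (vertical axes, each with its own range) in each of the 12 arteries for the 8 other pathway genes that passed between medium and small plaque arteries, with small, medium and large from left to right. Points are arteries and black lines are group means. The 5 medium plaque arteries lie apart from the 4 small ones in each panel, which is favoured by the choice of genes, since they were picked by that comparison. In LRP5, APCDD1 and TLE1 at least 1 large plaque artery lies within the range of the small ones.

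These calls held to differing degrees under other settings and with arteries left out. Out of 23 alternatives the medium against small call held under 22 for APCDD1, 21 for TLE1, 20 for TMED2, 14 for RSPO3, 13 for DAAM2, 11 for AMER1 and 9 for LRP5. The TMED2 call was lost without small replicate 2 (adjusted p = 0.0632) or 3 (0.0513), and its large against small call without any large replicate, medium replicates 2, 3 or 5, or small replicates 1, 2 or 3 (up to 0.208). RSPO3 lost its call without medium replicates 3, 4 or 5 or small replicates 1, 3 or 4 (0.0621 to 0.0756), and DAAM2 without medium replicates 1, 4 or 5 or small replicates 1, 2 or 3 (0.0503 to 0.0619). AMER1 lost it without large replicates 2 or 3, medium replicates 1, 2, 4 or 5, or small replicates 1, 2 or 3 (0.0515 to 0.0992), and LRP5 without any large replicate, medium replicates 1, 2, 4 or 5, or small replicates 1 or 3 (0.0544 to 0.0972). Leaving out an artery of a group that is not in the comparison changed only the SE and the adjusted p. Without a large replicate the medium minus small estimates thus stayed at -0.73 for AMER1 and -1.39 for LRP5. Leaving out small replicate 4 and medium replicate 5 together ended the calls of APCDD1 (0.0580), TLE1 (0.0734), LRP5 (0.0759), RSPO3 (0.108), AMER1 (0.0696) and DAAM2 (0.0883), and TMED2 and NKD1 passed without them.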

How the data were processed

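Per the labels' protocols, total RNA of each artery was amplified to biotin-labelled cRNA, hybridised to 1 CodeLink human array, stained with an Alexa dye and scanned in a GenePix scanner. The values used are the authors' deposited intensities on a linear scale; how background was treated is not given in the sources used here. Array medians near 1 show that the authors had scaled each array. Gene names of probes are those of the platform annotation and may be outdated: of 53877 probes tested, 23267 had 1 symbol, 900 several and 29710 none. A probe was tested where every group had 2 or more animals with a value. Intensities under 0.111 were set to it (5.45% of values) and log2 taken, then limma 3.58.1 in R 4.3.3 fitted 3 group means over 12 arrays (lmFit, eBayes, two-sided, Benjamini-Hochberg over all probes), and separately a slope on plaque area. SE is that of the limma estimate. The fits were run on simulated data with independent normal errors and no floor, which checks the code and not the calls reported here. No arrays were identical, and the number of arrays limits the precision. Values by artery are given for members that passed and the next by smallest p over the 3 groups, 12 in all, with SFRP2 and SFRP4 added after their values were seen; pathway genes are named where a probe passed, and AXIN2 and CTNNB1 by choice. The members and lists were chosen with earlier results of these data known. Replicate numbers are those of the labels.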

Additional observations from a re-analysis of the deposited data

Results flagged for a closer look

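In 80 groups of 4 or 5 arteries over 40 member probes, 4 held an artery whose gap to its nearest neighbour was unusually wide for the range of its group, a number that chance alone can give, since about 1 group in 20 is expected to be picked. The brighter WNT4 probe was picked in both groups, with 1.75 in small replicate 3, where the next value was 0.63, and 0.79 in medium replicate 3, where the next was 0.34. WNT8B reached 5.08 in small replicate 1, with the next value at 4.78. The brighter FZD5 probe had -0.69 in small replicate 3, with the next value at 0.62.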

How the results depend on the processing

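The members above the floor gave no call in nearly all fits, and the precision of 12 arrays, the floor and human probes on monkey RNA limit what could be seen. With 1 artery left out at a time, member calls ran from 0 to 1 for large against small, medium against small and the 3-group test (WNT8A each time, in the last 2 without small replicate 2), and stayed at 0 for large against medium and the slope. Calls over all probes then ran from 112 (without large replicate 3) to 1216 (without small replicate 1) for large against small, where all 12 arrays gave 617, and from 847 (without small replicate 2) to 1568 for medium against small, where they gave 1693. They ran from 0 to 3 for large against medium, from 0 (without large replicate 3) to 746 (without medium replicate 1) for the slope, against 314, and from 365 (without small replicate 2) to 1098 for the 3-group test, against 1062. Of the settings named in the following, the cause of each change was not tested, save that fewer samples or other thresholds change counts by construction.

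The large against small count of members, 1, became 0 with quantile normalization, a floor at the 1st percentile, dim probes left out, a variance trend with robust moderation, small replicate 4 and medium replicate 5 left out together, the replicate number as a block, only the 2 groups in the fit, or an adjusted p threshold of 0.01. The medium against small count, 0, became 1 with the trend and 2 at a threshold of 0.10, the slope count 1 at 0.10, and the 3-group count 1 with a floor at the 10th percentile and 1 at 0.10. Members near the floor numbered 8 when the limit was 2 log2 units. Over all probes, large against small gave 948 with dim probes left out, 1161 with the trend, 1338 with array weights, 316 without small replicate 4 and medium replicate 5 together, 379 with only the 2 groups, 1747 at a threshold of 0.10 and 135 at 0.01. Medium against small gave 773 without those 2 animals, 3200 at 0.10 and 424 at 0.01. Large against medium, with 0 calls in limma and 1949 of 42938 probes not near the floor at an unadjusted p under 0.05, gave 1 with quantile normalization, 3 with array weights, 4 with only the 2 groups and 1 at 0.10. The slope gave 174 and 509 with floors at the 1st and 10th percentiles, 656 with dim probes left out, 777 with the trend, 0 without those 2 animals, 1586 on the square root of plaque area, 0 over the 8 medium and large arteries, 1498 at 0.10 and 1 at 0.01. The 3-group test gave 1666 with the trend, 382 without those 2 animals, 2284 at 0.10 and 266 at 0.01.

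Over 10 same-number pairs of animals the correlation of deviations ran from -0.16 to 0.22, with 4 over 0.1. It was positive in all of these save small replicate 4 with medium replicate 4. Pairs with different numbers took both signs, from -0.20 to 0.23. Whether animals of the same replicate number had anything in common was not tested. With the number as a block, all-probe calls were 866 for medium against small, 0 for the slope and 540 for the 3-group test. The block also ended the medium against small call of TMED2 (adjusted p = 0.0596), LRP5 (0.0551), RSPO3 (0.114), AMER1 (0.0643), TLE1 (0.0741) and DAAM2 (0.0871), but not of APCDD1 and NKD1, and the large against small calls of WNT8A (0.127) and TMED2 (0.106). It turned DKK3 to 0.028 in large minus small and 0.0098 on the slope, and WNT4 to -0.070 in large minus medium.

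Signs of estimates that had not passed turned as follows. On the slope over the 8 medium and large arteries WNT3 gave 1.62 (-0.34 over all 12 arteries), FZD1 0.37 (-0.44), WNT4 0.11 (-0.56), WNT11 0.32 (-0.64) and DKK2 0.59 (-0.92). FZD4 in large minus medium gave 0.0092 with quantile normalization and 0.0091 without the 2 animals numbered apart, DKK3 in large minus small gave 0.077 without them, and its slope 0.022 on the square root of area, and WNT4 in large minus medium gave -0.013 with array weights and -0.018 without them. LRP5 in large minus small gave 0.16 with array weights. With 1 artery left out, estimates whose sign turned ran from -0.18 to 0.18 for FZD7, from -0.053 to 0.0091 for FZD4, from -0.069 to 0.11 for WNT4 and from -0.80 to 0.27 for WNT11 in large minus medium, from -0.75 to 0.035 for WNT3, from -0.13 to 0.11 for DKK3 and from -0.33 to 0.13 for LRP5 in large minus small, from -0.28 to 0.26 for WNT2B in medium minus small and from -0.16 to 0.21 per mm2 for DKK3 on the slope.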
